A study of Mus musculus with 721 samples.

Results

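Epiblast cells that had not switched on the mesoderm gene T were studied in embryos whose cell titles carry no plate name. The table holds single-cell transcriptomes of wild type C57Bl/6Babr mouse embryos between E3.5 and E6.5, and each well was picked by hand and amplified with the SMART-seq2 chemistry of G&T-seq. Of the 721 cells, 121 from 4 embryos have a title that begins with E6.5 or E6.75 and names none of the plates P1, P2 and P3, although the stage field of all of them reads E6.5. A cell was taken when T was below 10 CPM (counts scaled to a total of 1000000 per cell) and when the mean log2(CPM + 1) of 6 endoderm genes (Apoa1, Ttr, Cubn, Dab2, Amn and Apoc2) did not exceed that of 3 epiblast genes (Pou5f1, Tdgf1 and Dnmt3b). This left 62 cells, of which 3 came from E6.5 embryo 1, 7 from E6.5 embryo 2, 43 from E6.75 embryo 1 and 9 from E6.75 embryo 2. Among the other 59 cells, 14 were set aside by the endoderm score and 45 by T. The same rule gave 82 cells from 9 E6.5 embryos on plates P1 to P3 and 257 cells from 9 embryos at E5.5, which served for comparison. The E6.5 embryos were staged as early streak and freed of extra-embryonic tissue before the embryonic portion was dissociated, whereas at E5.5 the epiblast was aspirated out of the visceral endoderm and both were dissociated apart. 5 of the 62 wells were labelled as holding a pair of cells.

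The values that chose the cells are a description and not a result. The highest T level inside the limit was 9.42 CPM and the lowest outside it 16.1 CPM, and 51 of the 62 cells had no T count at all. The epiblast score exceeded the endoderm score by 0.118 in the nearest cell inside and fell short of it by 1.19 in the nearest cell outside (a difference of -1.19).

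The epiblast is the cup-shaped epithelium from which all tissues of the fetus arise. It passes from a naive to a primed form of pluripotency after implantation, keeping Pou5f1 and gaining Otx2 and Fgf5, and Nodal, Wnt and BMP signals from the surrounding tissues then pattern it. On its posterior side T, Eomes and Mixl1 come on as cells enter the primitive streak, while anterior cells hold on to Sox2. T-negative cells of this stage are therefore a mixture of cells far from and close to the streak.

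Total counts of the 62 cells ranged from 74054 to 3792936 (median 523578), against a median of 732787.5 on the plates and 783785 at E5.5. For comparisons between embryos the raw counts were summed over the selected cells of each embryo with at least 3 of them, which gave 4 embryos without a plate name, 9 on plates and 8 at E5.5. Although the depth was lower, more genes were detected in the cells without a plate name. After thinning each cell to 200000 counts the median was 7421 to 7998 genes per embryo, against 4796 to 6048.5 on the plates and 5292.5 to 6656 at E5.5 (7723 ± 309, 5293 ± 374 and 6032 ± 463, mean ± SD, n = 4, 9 and 8 embryos). Both differences were larger than the spread between embryos (p = 0.0028 and 0.00404, exact two-sided permutation tests on embryo means, 0.00808 after adjustment over 10 such tests). Unthinned medians were 7874 to 9087, 5315 to 6576 and 5640 to 7198 genes. No plate is named for cells of both groups in any comparison below, so that plate and group cannot be told apart.

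The cells carried the transcripts of epiblast. Pou5f1, the transcription factor that maintains pluripotency, lay between 372 and 1941 CPM in all 62 cells, and Otx2, a homeodomain factor of the primed epiblast, at 10 CPM or more in all 62. Mesp1, an early mesoderm factor, reached 10 CPM in 2 of the 62 cells. Transcripts of other streak genes, among them Eomes, Fgf8 and Mixl1, and of endoderm markers were present too, at levels given below. Pou5f1 belongs to the score that chose the cells, and Otx2 and Mesp1 do not. Otx2 was not restricted to epiblast, however. In the pooled counts of the cells set aside by the endoderm score it measured 102 CPM without a plate name and 355 CPM on the plates.

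Cxcr2, a receptor for CXC chemokines on chromosome 1 (74153989 to 74161246, GRCm38), was the marker that set these embryos apart most clearly. Its level in the summed counts (CPM after TMM scaling, the unit of all embryo levels below) was 12.6 in E6.5 embryo 1, 12.1 in E6.5 embryo 2, 55.7 in E6.75 embryo 1 and 115 in E6.75 embryo 2. The 9 plate embryos ran from 0 to 3.89 (median 0.725) and the 8 E5.5 embryos from 0.297 to 3.26, so that the groups did not overlap. The log2 fold change was 5.49 ± 0.89 (SE) against the plates (adjusted p = 0.000585, edgeR quasi-likelihood test over all tested genes) and 5.30 ± 0.91 against E5.5 (adjusted p = 0.00102). Aldh1a3, which makes retinoic acid from retinaldehyde and lies on chromosome 7 (66390890 to 66427517), measured 8.39, 20.6, 80.8 and 49.8 CPM in the same order. The plate embryos ran from 0 to 8.41 CPM and those of E5.5 from 2.07 to 8.98, and E6.5 embryo 1 lay within both ranges. Its log2 fold change was 3.66 ± 0.79 (adjusted p = 0.00848) against the plates and 3.21 ± 0.81 (adjusted p = 0.0278) against E5.5. Without E6.75 embryo 1 neither call was kept (adjusted p = 0.0783 and 0.194), nor was that against E5.5 without E6.75 embryo 2 (adjusted p = 0.1002). Cxcr2 and Aldh1a3 both stand on a list of epiblast genes that the study drew from these same cells. Their tests are therefore no independent evidence.

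Pou5f1 measured 1259, 1324, 822 and 772 CPM in the 4 embryos without a plate name, from 239.5 to 759.5 (median 408) on the plates and from 1463.5 to 1954 at E5.5. The plate embryos lay below all 4 and the E5.5 embryos above them. Since Pou5f1 belongs to the score of the rule, these levels are a description with no test. Otx2 measured 276, 195, 333 and 287 CPM, within the plate range of 228 to 591 except for E6.5 embryo 2, and above the E5.5 range of 84.9 to 189. Its differences did not pass both limits in either comparison (-0.37, adjusted p = 0.510 against the plates, and 0.89, adjusted p = 0.0405 against E5.5).

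**Figure D1:**
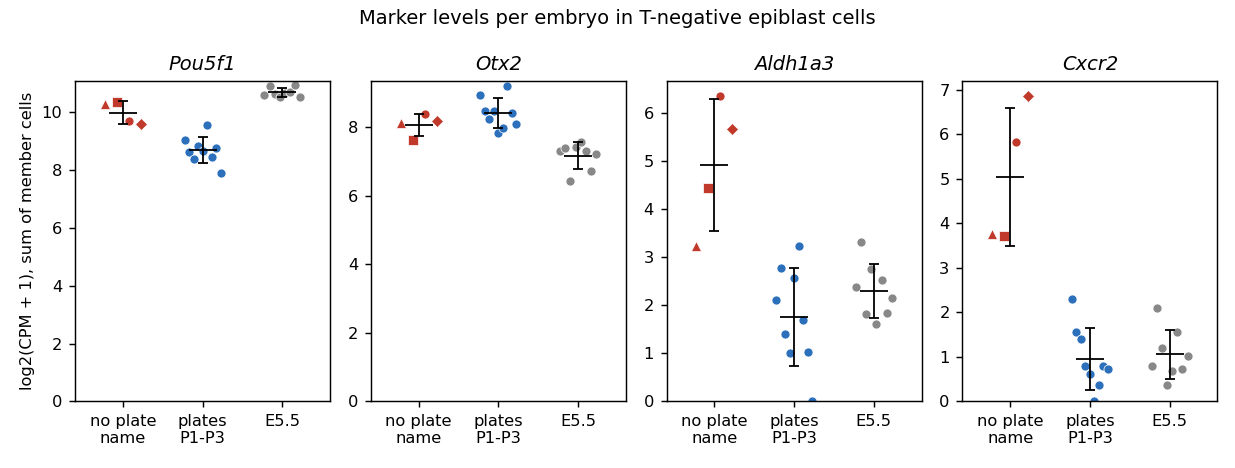
Levels of 4 markers as log2(CPM + 1) of the summed counts, 1 point per embryo, with the mean and SD in black. Red points are the 4 embryos without a plate name (triangle and square for E6.5 embryos 1 and 2, circle and diamond for E6.75 embryos 1 and 2), blue points the 9 plate embryos and grey points the 8 E5.5 embryos. All red Cxcr2 points stand above all blue and grey ones, with the E6.75 embryos higher than the E6.5 embryos.

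In single cells Cxcr2 was at 10 CPM or more in 55 of 62 cells (88.7%, exact binomial interval 78.1 to 95.3%), in 1 of 82 plate cells and in 8 of 257 E5.5 cells. In E6.75 embryo 1 it reached that level in 42 of 43 cells (lowest 8.44, median 55.2 and highest 274 CPM) and in E6.5 embryo 2 in 2 of 7 (lowest 3.93, median 5.12 and highest 65.0 CPM). In the 14 endoderm cells of the same 4 embryos the share was 21.4%, at a median depth of 829250 counts against 523580 in the epiblast cells. With each cell thinned to 200000 counts the shares were 89.7% of 58 cells, 3.66% on the plates, 7.42% at E5.5 and 35.7% in the endoderm cells. Aldh1a3 was at 10 CPM or more in 55 of the 62 cells, 9 of the 82 plate cells, 31 of the 257 E5.5 cells and 8 of the 14 endoderm cells. Both genes thus reached that level in most of the 62 cells, and the 45 T-positive cells of the same embryos had Cxcr2 and Aldh1a3 there in 91.1% each. The shares in the epiblast and endoderm cells were not compared by a test. The interval covers the counting of cells only and takes them as independent. It leaves out the spread between the 4 embryos, of which E6.75 embryo 1 gave 43 of the 62 cells. Reads without molecular identifiers are not independent molecules either.

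Against the plates, 200 of 13068 tested genes (1.53%) rose and 153 (1.17%) fell in the cells without a plate name, with edgeR (limits of 0.05 on the adjusted p and of 1 on the size of the log2 fold change), while the median over all tested genes was 0.07. Overlap of embryos was counted among called genes only, with no share over all tested genes beside it, and serves here to choose genes to name. Embryos of both groups did not overlap for 74 of the risen and 104 of the fallen genes. The 12 largest rises among these with a mean of at least 10 CPM were led by Gtdc2, a glycosyltransferase that acts on dystroglycan (7.37 ± 1.49), and Cic, a transcriptional repressor that receptor tyrosine kinase signalling relieves (6.09 ± 1.07), followed by Cxcr2. Gtdc2 measured 7.78 to 37.5 CPM in the 4 embryos and was at 0 in all plate embryos but 1, at 0.7103 CPM. Zdhhc8, a palmitoyltransferase, and Npdc1 rose by 5.07 and 4.62, Slc48a1, a haem transporter, by 4.27, and the predicted gene Gm20518 by 3.63. Insr, the insulin receptor, rose by 3.15 ± 0.86, Taf8, a subunit of the general transcription factor TFIID, by 3.15, Pik3r2, a regulatory subunit of PI3 kinase, by 2.61 and Plec, the cytoskeletal linker plectin, by 2.59. Slc48a1 overlaps Hdac7 on the opposite strand. On the same strand Npdc1 overlaps Entpd2, Gm20518 overlaps Car15 and Dgcr2, and Plec overlaps Parp10. Reads in the shared stretches cannot be told apart. Dennd5b, a member of a family of Rab exchange factors, measured 269 ± 150 CPM (SD, n = 4) against 34.8 ± 17.0 on the plates (n = 9) and 28.2 ± 8.85 at E5.5 (n = 8), and rose in both comparisons (2.95 ± 0.38 and 3.26 ± 0.39, adjusted p = 2.65e-05 and 2.05e-05). It stands on the same study list as Cxcr2. Of the 12, only Cxcr2 and Dennd5b also passed against E5.5. At E5.5 Slc48a1, Gm20518, Taf8, Pik3r2 and Plec measured 12.95, 38.1, 27.2, 67.1 and 48.5 CPM, against 12.5, 24.2, 34.8, 45.9 and 60.3 CPM in the 4 embryos. Gtdc2, Cic, Zdhhc8, Npdc1 and Insr measured 3.59, 9.52, 5.95, 5.89 and 19.9 CPM at E5.5. Of all 13068 tested genes 8 were called higher in both comparisons.

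Not all of these rises kept their call with fewer embryos. The 12 were all called with 4 embryos, and Gtdc2, Cic, Cxcr2, Slc48a1, Dennd5b and Pik3r2 stayed called whichever embryo without a plate name was left out. Gm20518 (21.4, 34.3, 24.0 and 16.9 CPM) and Insr (73.3, 68.0, 40.7 and 28.0 CPM) lay above the plate embryos in all 4 and lost their call without any 1 of them, Insr at log2 fold changes of 2.90 to 3.36. Npdc1 and Plec were lost without either E6.5 embryo, Zdhhc8 without E6.5 embryo 2 and Taf8 without E6.5 embryo 1 or E6.75 embryo 1. With only the E6.75 embryos, Cxcr2, Dennd5b and Pik3r2 remained. The number of called genes was 227 without E6.5 embryo 1 and 193 without E6.5 embryo 2, against 353 with both.

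The 12 largest drops held 4 rows for predicted genes of repeated sequence, Gm10718, AC242409.1, Gm10801 and Gm10800, whose reads could have been split among copies and which are uncertain for that reason. Rpgrip1, a ciliary protein, measured 88.9 ± 25.4 CPM (SD, n = 4) against 782 ± 143 (n = 9) and fell by 3.14 ± 0.28 on the log2 scale (adjusted p = 7.64e-08). Arglu1, a splicing coregulator, measured 77.9 ± 13.9 against 562 ± 119 and fell by 2.85 ± 0.26 (adjusted p = 1.21e-07). Cbx3, a heterochromatin protein that reads methylated histone H3, fell by 2.91 ± 0.38, and Pdpn, the membrane glycoprotein podoplanin, fell from 389 ± 172 on the plates to 68.9 ± 25.8 CPM (adjusted p = 4.72e-05). Slc24a5, a cation exchanger, fell by 2.68, Rbm15, a subunit of the RNA methylation machinery, by 2.54, Zfp691 by 4.04 and Bhlhe41, a circadian repressor, by 3.76. All but Gm10718 stayed called whichever embryo was left out. At E5.5 Rpgrip1, Cbx3, Arglu1, Slc24a5 and Pdpn measured 73.6, 89.7, 72.2, 56.7 and 67.4 CPM. None of these 5 passed against E5.5 (log2 fold changes from -0.26 to 0.27), and Bhlhe41 fell there too (by 3.02, adjusted p = 0.0201). Rpgrip1 overlaps Supt16 and Slc24a5 overlaps Myef2 on the opposite strand, and without strand in the libraries their reads cannot be told apart.

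**Figure D2:**
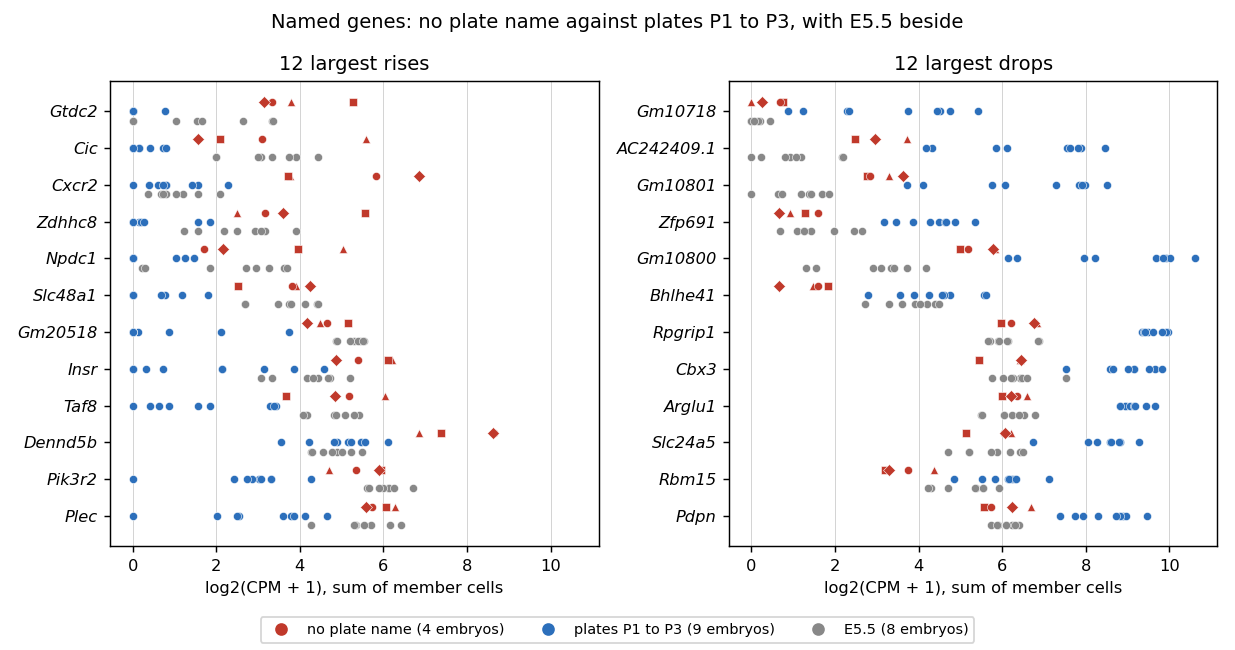
The 12 largest rises (left) and 12 largest drops (right) between embryos without a plate name and plates P1 to P3, as log2(CPM + 1) of the summed counts, 1 point per embryo. Red symbols are the 4 embryos without a plate name with the same shapes as in the marker plot, blue circles the 9 plate embryos and grey circles the 8 E5.5 embryos, and for Rpgrip1, Cbx3, Arglu1, Slc24a5 and Pdpn the red and grey points lie together below the blue ones.

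The GC content of a transcript moved with the difference from the plates. Across the 89.7% of tested genes with a GENCODE transcript, the log2 fold change and the GC content of the longest transcript had a Spearman correlation of 0.297 (across genes, which are not independent replicates). Risen genes had a median GC content of 55.5% and fallen genes of 43.8%, against 50.1% for all tested genes. In the 10% of genes with the lowest GC content 2 rose and 46 fell, and in the 10% with the highest 46 rose and 1 fell. The median GC content of the counts was 48.9 to 49.96% in the embryos without a plate name, 47.9 to 48.9% on the plates and 49.6 to 50.4% at E5.5, with a difference of 0.964 percentage points from the plates (p = 0.00559, adjusted p = 0.00932, exact two-sided permutation test) and of -0.60 from E5.5 (p = 0.0404, adjusted p = 0.0505, the same test). With GC content as an offset in edgeR the correlation was -0.03, and 107 genes rose and 96 fell. Of the 320 called genes with a GC value 178 were called again, 96 of 181 risen and 82 of 139 fallen ones. Cxcr2, Aldh1a3, Cic, Slc48a1, Insr, Dennd5b and Pik3r2 among the rises named here kept their call, as did 10 of the 12 drops.

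**Figure D3:**
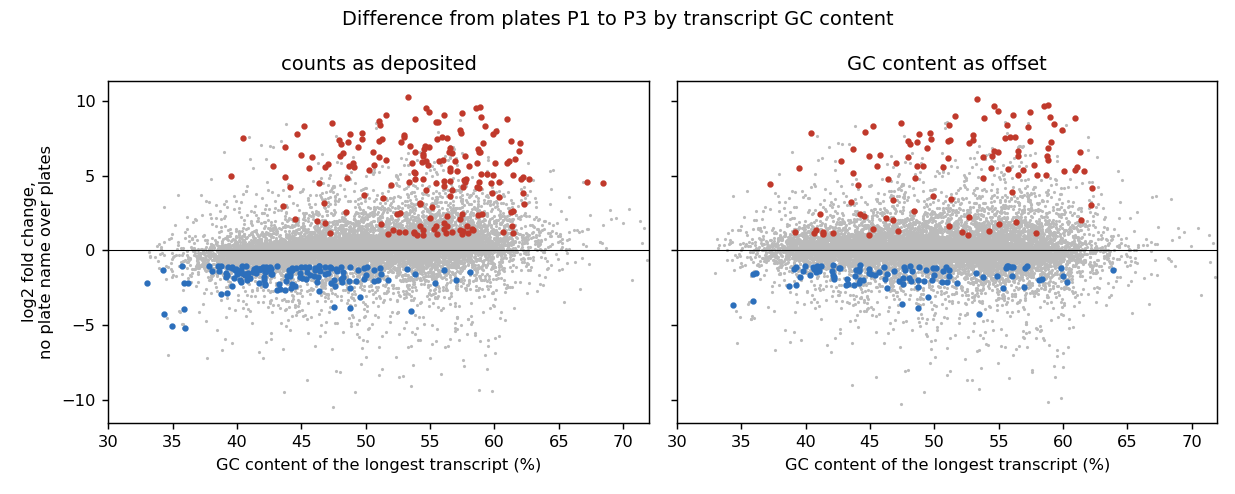
Log2 fold change between embryos without a plate name and plates P1 to P3 (vertical) against the GC content of the longest transcript in percent (horizontal), 1 point per gene, from the counts as deposited (left) and with GC content as an offset (right). Red points are the genes called higher and blue points those called lower. On the left most red points lie at high and most blue points at low GC content, while on the right both are spread over the range.

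Part of the difference was also present in endoderm cells from the same embryos. The 14 endoderm cells without a plate name (4 embryos) were compared with the 39 endoderm cells on plates (9 embryos), without a test. Of the 153 genes that fell in the epiblast cells, all 153 were lower in the endoderm cells without a plate name as well, 117 of them by more than 1 on the log2 scale of CPM + 1. Of 125 risen genes with at least 1 CPM in either set of endoderm cells, 97 (77.6%) were higher there, against 53.9% of the 11496 tested genes at that level. The gap was similar in size for Rpgrip1, Cbx3 and Arglu1 (-2.99, -2.91 and -2.69 in the endoderm cells). Dennd5b measured 102 and 101 CPM in the endoderm cells without a plate name and on plates, Plec 20.6 and 20.4 and Slc48a1 2.52 and 2.13. Cxcr2 measured 6.39 and 0.0489 and Aldh1a3 12.5 and 1.39, so that both were higher in the endoderm cells without a plate name too.

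Pluripotency and lineage genes were read from lists. Pou5f1 and Tdgf1, of the 12 core and general pluripotency factors, belong to the rule. So do Tdgf1 of the Nodal pathway list, Dnmt3b of the formative and DNA methylation lists and T of the streak list. These genes stand in their lists in both comparisons, and their values are a description. Among the other core factors, the RNA-binding ubiquitin ligase Trim71 (137 ± 49.7 against 403 ± 165 CPM, SD) and the let-7 blocker Lin28a (169 ± 29.7 against 368 ± 131) fell against the plates. Of 18 formative and primed factors only Sox4 passed, and fell by 1.19, and of 11 tested naive factors none passed. None of the 8 tested anterior and neural plate genes and none of the 23 tested primitive streak and nascent mesoderm genes passed either. Their medians were -0.65 and 0.25, against 0.07 over all tested genes. Eomes, the T-box factor of the early streak, measured 90.7 ± 31.0 CPM against 120 ± 80.4, and Sox2 31.2 ± 10.2 against 62.0.

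Signalling genes were read in the same way. Of 17 tested Nodal pathway genes the receptor Acvr2b rose by 1.36 ± 0.33 and Skil, which restrains SMAD proteins, fell by 1.85 ± 0.29 (195 ± 39.1 against 701 ± 281 CPM). Of 33 tested Wnt pathway genes the ligand gene Wnt6 rose (5.96 and 16.9 CPM in E6.5 embryos 1 and 2, 0.399 and 0 CPM in E6.75 embryos 1 and 2, with the plate embryos at 0.105 or less), while the receptor Lgr4 and the transcription factor Tcf7l2 fell by 2.70 and 2.21. Of 23 FGF pathway genes the feedback inhibitor Spry2 fell by 2.09 ± 0.39, and of 21 BMP pathway genes none passed. With GC content as an offset Acvr2b was lost (1.05, adjusted p = 0.0903). Aldh1a3 was the 1 call among 15 retinoid genes and Cxcr2 the 1 call among 8 tested chemokine and receptor genes. The chemokine ligand genes Cxcl1, Cxcl2, Cxcl3 and Cxcl15 had no count in any of the 4 embryo sums, which, at 3 counts over the 4 embryos, limits them to 0.0644 CPM. Of the list of 22 retinoid genes Aldh1a1, Cyp26b1, Cyp26c1, Rarb and Lrat were also without a count.

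In the remaining lists the glycolytic enzyme gene Gapdh rose (348 ± 39.7 against 152 ± 41.4 CPM) as the 1 call of 22, Jarid2, a cofactor of Polycomb repressive complex 2, fell by 1.14 as the 1 call of 9, and Nusap1, a spindle protein, fell by 1.22 as the 1 call of 24 G2 and mitosis genes. Cldn6, a tight junction protein, rose by 1.01 as the 1 call of 19 epithelial and mesenchymal genes. With GC content as an offset neither Nusap1 (-0.79, adjusted p = 0.187) nor Cldn6 (0.68, adjusted p = 0.175) was called. H2-M3 (1 of 26 interferon and antigen presentation genes) and Nanos3 (1 of 8 germ cell precursor genes) were at 0 in all plate embryos. Over the pooled counts they were at least 24.6-fold and 20.6-fold higher against 3 counts over that group, from 49 and 41 counts. H2-M3 measured 2.21, 0, 1.09 and 1.75 CPM and Nanos3 3.31, 0.680, 0.399 and 1.36 CPM in E6.5 embryos 1 and 2 and E6.75 embryos 1 and 2. In the endoderm cells H2-M3 was at 0 without a plate name and at 3.18 CPM on the plates. None of 24 S phase, 8 DNA methylation, 18 p53 and apoptosis, 20 immediate early and stress and 13 trophoblast genes passed. Wnt6 was also the 1 call of 4 tested non-neural ectoderm genes. Of the 21 visceral endoderm markers, 6 of which belong to the rule, none passed. Their summed level was 1062 to 8021 CPM without a plate name and 792 to 4713 on the plates, with none of the 21 at 0 in the 4 embryos.

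A pair of lists that the study drew from these same cells gave the largest shares, and since the cells that chose them are included they are no independent evidence. Of the 18 genes listed for the first epiblast class 13 fell and none rose against the plates (median -1.64), among them Klhl9 by 2.23 and Schip1 by 1.99. Of the 17 genes listed for the other class 7 rose and none fell (median 2.40). These were Cxcr2, Aldh1a3, Mettl7a3, Dennd5b, Tmem80, Arl5c and Wfdc2, and Mettl7a3 was lost without either E6.75 embryo.

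Against E5.5, 153 of 13068 tested genes (1.17%) rose and 144 (1.10%) fell. Embryos did not overlap for 107 of the risen and 134 of the fallen genes, again counted among called genes only. The cells without a plate name enter this comparison as well as that with the plates. Among the 12 largest rises Sox7, an endoderm transcription factor, Spp2 and Prl8a2 had no count in any E5.5 embryo and had levels at least 550-fold, 715-fold and 568-fold higher (3 counts over the 8 embryos as the floor). Apoa4, an apolipoprotein, measured 85.2 ± 107 CPM against 0.340 ± 0.387, Spink3, a secreted protease inhibitor, 994 ± 664 against 2.68 ± 3.64, and Foxq1 17.0 ± 22.1 against 0.0295. The others were Rnase4, Muc13, Gm10680, Pla2g12b, Slc39a8 and Tmprss2, with log2 fold changes from 7.22 to 8.29. With E6.75 cells only, Spp2, Foxq1, Rnase4, Muc13, Apoa4, Gm10680 and Tmprss2 lost their call. Apoa4 measured 88.6 and 235 CPM in E6.5 embryos 1 and 2 and 7.65 and 9.72 CPM in E6.75 embryos 1 and 2, and Foxq1 14.6, 48.8, 0.399 and 4.08 CPM in the same order. Gm10680 lies opposite Apoa4 and cannot be told apart from it.

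Endoderm transcripts moved with this comparison. Of the 21 visceral endoderm markers 14 rose and none fell. All 6 genes of the endoderm score are among the 14, and since their values chose the cells their calls are a description. Outside the score Apoa4, Apob, Apom, Afp, Rbp4, Foxa2, Hnf4a and Spink3 rose. The median over all 21 markers, those 6 included, was 5.58, against -0.06 over all tested genes. Their summed level was 1062 to 8021 CPM in the 4 embryos and 346 to 612 CPM at E5.5. In single cells the median per embryo was 4970, 2249, 714 and 3295 CPM in E6.5 embryos 1 and 2 and E6.75 embryos 1 and 2, against 312 to 606 in the E5.5 embryos. On the plates the range was 676 to 4418 CPM. These sums include the 6 genes of the rule and are a description. Exact two-sided permutation tests were run on the medians per embryo (p = 0.00404 against E5.5 and 0.414 against the plates). Both tests were counted in the adjustment of the permutation p-values, and since the rule used these genes they are not read as a result. When only cells with an epiblast score at least 3 above the endoderm score were kept, 51 of the 62 cells remained (a choice made after seeing the data). E6.5 embryo 1 kept 1 cell and so left this fit, in which 84 genes rose and 99 fell against E5.5. Sox7, Prl8a2, Spink3 and Slc39a8 kept their call there and the other 8 named rises did not. Spp2, 1 of these 8, was not among the genes tested there. With E6.5 embryo 1 left out and no such limit on the score, all 12 named rises kept their call. The part of endoderm RNA in each of them was not tested further.

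Several genes that fell against E5.5 had no count at all in the cells without a plate name. 1700019A02Rik, Padi6, 4930591A17Rik, E330020D12Rik and Zbp1, a sensor of nucleic acids, had no count in the 4 embryos. They were at least 317-fold, 230-fold, 143-fold, 174-fold and 300-fold lower than in the pooled E5.5 counts (3 counts over the 4 embryos as the floor), and Gm13227 at least 216-fold. Padi6, 4930591A17Rik and E330020D12Rik were also at 0 in every plate embryo. Aire, a transcriptional regulator, measured 0.0849 ± 0.170 CPM against 114 ± 34.7 at E5.5 and was at 0 on the plates, though Dnmt3l overlaps it on the opposite strand. Dppa2, a chromatin factor of early pluripotent cells, measured 0.386 ± 0.402 against 87.0 ± 30.8 CPM and Gadd45g, a stress-response gene, 0.448 ± 0.771 against 108 ± 57.4. Tap2, Rex2 and 2410141K09Rik completed the 12. Zbp1 and 2410141K09Rik were lost without any 1 embryo, Gm13227 without either E6.75 embryo, and Tap2 and Gadd45g without E6.75 embryo 2. The number of called genes, 297 in all, was 176 without E6.5 embryo 1, 178 without E6.75 embryo 1 and 137 without E6.75 embryo 2.

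By list, Dppa5a was the 1 of 11 naive genes that passed, from 3621 ± 771 CPM at E5.5 to 192 ± 48.0 (log2 fold change -4.24 ± 0.28, adjusted p = 2.38e-10), with 340 ± 126 on the plates. Among the 12 core factors Nanog, which returns in the posterior epiblast, rose (68.9 ± 21.99 against 10.9 ± 4.61 CPM, adjusted p = 0.0172) and Dppa2 and Dppa4 fell. Of 18 formative and primed factors Fgf5, Zic2 and Zic5 rose and the de novo methyltransferase gene Dnmt3a fell (356 ± 34.7 against 1133 ± 181 CPM, adjusted p = 3.26e-06). Dnmt3a was the 1 call of 8 DNA methylation genes.

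Of the 23 tested streak and nascent mesoderm genes 5 rose (1.17% of all tested genes did) and none fell against E5.5 (median 2.72). Eomes measured 96.7, 45.5, 105 and 115 CPM in the 4 embryos against 11.8 ± 6.97 at E5.5 (log2 fold change 2.95 ± 0.47, adjusted p = 0.000575). Mixl1, a homeobox gene of the streak, measured 1.77, 17.3, 13.6 and 41.8 CPM against 0.263 ± 0.219 (adjusted p = 0.00743). Lhx1 and Foxa2 passed with means of 19.3 and 2.90 CPM, the first mainly from E6.5 embryo 1 at 65.2 CPM, and Evx1 was at least 234-fold higher over the 4 embryos, since the E5.5 embryos had none. Both E6.5 embryos had no Evx1 count either, and the E6.75 embryos measured 2.76 and 14.8 CPM, with a level of 10 CPM or more in 4 of 43 and 2 of 9 cells and in 5 of the 14 endoderm cells without a plate name. The 14 endoderm cells of the same embryos also held these transcripts, with Lhx1, Mixl1, Foxa2 and Eomes at 10 CPM or more in 9, 11, 12 and 13 of them, and their part in the 5 rises was not tested. Fst and Fgf8, both secreted, measured 54.1 ± 22.8 and 40.1 ± 20.0 CPM against 10.9 and 9.13 and did not pass (adjusted p = 0.137 and 0.0575).

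Cyp26a1, which degrades retinoic acid, measured 30.0, 31.7, 26.3 and 32.3 CPM in the 4 embryos and 0.240 ± 0.647 at E5.5 (adjusted p = 0.0017). It was the 1 call of 8 anterior genes. In the endoderm cells it measured 215 CPM without a plate name and 605 CPM on the plates, and their part in this rise was not tested. Of the other retinoid genes given here Aldh1a3 and Rbp4 rose and Crabp2 fell. Among signalling genes Cer1, the secreted antagonist of Nodal, was at least 564-fold higher over the pooled counts of the 4 embryos. Dkk1 (a Wnt antagonist), Spry2, Smad5 and Bmp2 rose as well, and none of the 17 Nodal, 33 Wnt, 21 BMP and 23 FGF pathway genes fell. Cer1, Dkk1, Bmp2 and Rbp4 are made by visceral endoderm too. The antigen-processing genes Tap1, Tap2, Psmb10 and Psme2 and the interferon-induced Ifitm1 fell, 5 of 26 in their list, as did the p53 target genes Bax (290 ± 91.5 against 864 ± 148 CPM) and Phlda3 of 18. Among 22 glycolysis genes Slc2a1, Slc2a3 and Slc16a1 rose and Eno1 and Slc16a3 fell. Among the 13 trophoblast genes only Eomes rose. None of the 24 S phase, 24 G2 and mitosis, 9 Polycomb, 20 immediate early and stress, 19 epithelial and mesenchymal, 8 germ cell precursor and 4 non-neural ectoderm genes passed, and of 8 chemokine genes only Cxcr2 did. The 17 genes of the second of the study's own epiblast lists gave 10 rises and no drop against E5.5, and the first gave 6 rises among 18, again as lists chosen on these cells.

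Between the E6.75 and the E6.5 embryos without a plate name, 2 against 2, none of 14581 tested genes passed with edgeR (524 had an unadjusted p under 0.05, and the lowest adjusted p was 0.627). DESeq2 called 20 higher and 2 lower at E6.75. Cxcr2 was higher by 2.79 and Aldh1a3 by 2.17 on the log2 scale in the E6.75 embryos, and neither passed (adjusted p = 1 each).

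Within embryos, variation was described in E6.75 embryo 1 with its 43 cells and read again in the 9 cells of E6.75 embryo 2. Excess variation is the log10 of the squared coefficient of variation above the trend for genes of like mean, over genes with a mean of at least 10 CPM. The 12 genes whose smaller excess of the 2 embryos was largest were Dqx1, 4933439K11Rik, Arl5c, Spink3, Dennd5b, Apob, B230312C02Rik, Tmem80, Lefty2, Atpaf2, Olfml2a and Apoa1. Dqx1, a helicase-like gene, ran from 0 to 1496 CPM (median 26.7) in embryo 1 and from 20.7 to 1433 CPM (median 157) in embryo 2. Dennd5b ran from 57.0 to 1744 (median 390) and from 24.5 to 1608 CPM (median 618). Arl5c, B230312C02Rik, Tmem80 and Dennd5b are all on the study's second epiblast list. Lefty2, an antagonist of Nodal, was at 10 CPM or more in 10 of 43 and 2 of 9 cells, with 1 cell of embryo 1 at 776 CPM. Spink3, Apob and Apoa1 are endoderm genes, and 10 of the 11 measured endoderm markers stood in the top 10% of genes by excess in embryo 1. Among them Apoa1, Ttr, Cubn, Amn and Apoc2 belong to the score that chose the cells, so that this count is a description.

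Next to the endoderm markers the streak list had the highest median percentile of excess in E6.75 embryo 1, at 99.1 among all measured genes. Of the 7 measured streak and nascent mesoderm genes 6 were in the top 10% there, namely Mixl1, Eomes, Fgf8, Nodal, Lefty2 and Fst. For the 24 G2 and mitosis genes the number was 9 (Ccnb1, Cdk1, Aurkb, Cenpe, Cenpf, Top2a, Ube2c, Kif23 and Mki67) and for the 24 S phase genes 2. Pou5f1, Nanog and Tdgf1 were the 3 of 11 pluripotency factors there, and Pou5f1 and Tdgf1 belong to the score that chose the cells. Eomes ran from 0 to 629 CPM with a median of 85.1 in the 43 cells and was at 10 CPM or more in 39 of them. Fst ran from 0 to 684 CPM (median 24.0, 25 cells), Fgf8 from 0 to 324 CPM (median 31.2, 35 cells), Mixl1 from 0 to 185 CPM (median 0, 16 cells) and Nanog from 0.776 to 275 CPM (median 49.5, 38 cells). In embryo 2 the medians were 150, 93.3, 60.3, 42.2 and 67.6 CPM.

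Some of these genes were high in the same cells and others were not. Across the 43 cells the Spearman correlation of Eomes was 0.71 with Fst, 0.62 with Fgf8, 0.44 with Nodal, 0.41 with Nanog and 0.27 with Mixl1, and -0.38 with Sox2. In the 9 cells of embryo 2 the same values were 0.47, 0.93, -0.07, 0.67, 0.25 and -0.23. Eomes and Lefty2 had a correlation of -0.10 in both embryos, and Mixl1 had 0.05 with Nanog, -0.04 with Nodal and 0.20 with Fst in embryo 1. Cells of 1 embryo share their preparation, and Eomes itself had a correlation of 0.04 with the total count of a cell in embryo 1 and of -0.65 in embryo 2, while Fgf8 had -0.35 and -0.77. Cxcr2 had a correlation of 0.17 with Eomes, 0.49 with Fgf8 and -0.10 with Aldh1a3 in embryo 1, and of -0.51 with the total count. Sox2 was at 10 CPM or more in 34 of 43 and 7 of 9 cells. All 62 cells had Utf1, a chromatin factor of pluripotent cells, at 75.4 CPM or more.

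**Figure D4:**
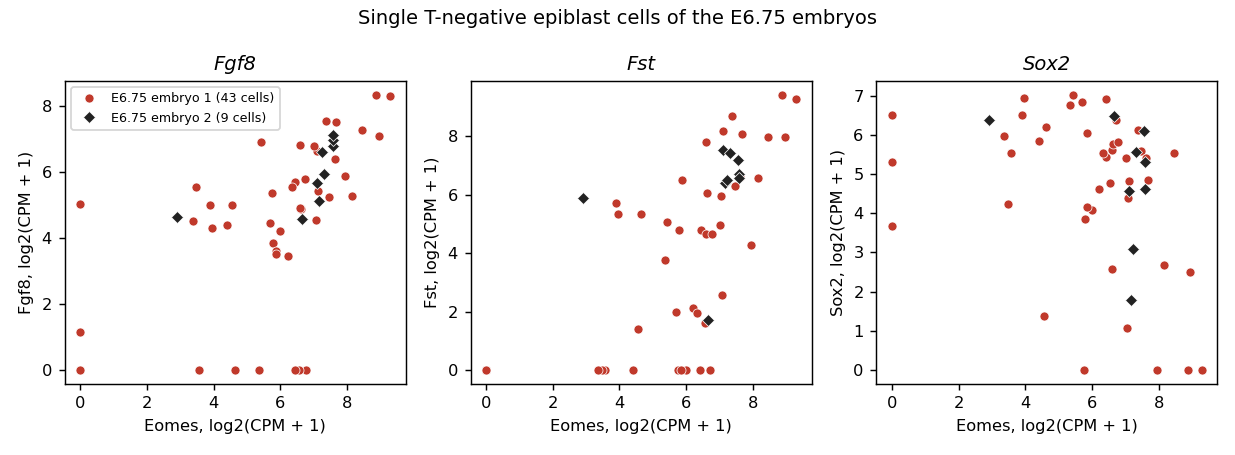
Fgf8, Fst and Sox2 (vertical) against Eomes (horizontal), all as log2(CPM + 1), 1 point per T-negative epiblast cell. Red circles are the 43 cells of E6.75 embryo 1 and black diamonds the 9 cells of E6.75 embryo 2. Fgf8 and Fst increase with Eomes in both embryos, while Sox2 is spread over all levels of Eomes.

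The first principal component of the 1000 genes with the largest excess in E6.75 embryo 1 took up 7.18% of their variance. One end held Eif4g1, Dnmt3a, Ankrd11, Zmynd8, Chd4, Tomm70a, Srrm2, Rock1, Rif1 and Agrn, among them several chromatin and RNA processing genes, and the other included Sub1, Eif5a, Mrpl28, Denr, Rbm8a, Utp11l, Calm2, Sdhd and Bnip3, with several genes of the translation machinery. It had a Spearman correlation of 0.38 with the number of genes detected, -0.09 with the total count, 0.66 with Pou5f1 and -0.23 with the summed endoderm markers. The sign of each component was set to make its correlation with Pou5f1 positive, so that only the size of that value was open. Pou5f1 also belongs to the rule and to the genes of large excess in this embryo. Within the first 10 genes the mean correlation was 0.45 in E6.75 embryo 1 and 0.07 in E6.75 embryo 2, and within the other end 0.41 and 0.21. In E6.5 embryo 2 the ends had 0.26 and 0.02. Since the genes were chosen by their loading in E6.75 embryo 1, the values of that embryo are a description. The second component took up 4.58% and had a correlation of -0.54 with the total count and of -0.42 with the summed endoderm markers. Its ends were led by Trpc4ap, Hdac3, Cenpe, Pmaip1, Mpdz, G2e3, Nmral1, Kif23, Actr10 and Arpc1a, and by Cacna1d, Meis3, Tmem121, Setd5, Rpusd1, Atf7ip2, Tfpi, Nudcd3, Asb13 and Scamp1. Within its ends the mean correlations were -0.01 and -0.04 in E6.75 embryo 2 and 0.15 and 0.16 in E6.5 embryo 2.

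T-positive cells lay beside the selected cells in 3 embryos with at least 3 of each, namely 23 and 7 in E6.5 embryo 2, 11 and 43 in E6.75 embryo 1 and 10 and 9 in E6.75 embryo 2. Since T chose the cells, their difference is described with no test. Of 8182 genes with a mean of 10 CPM, 23.6% were higher and 6.32% lower in the T-positive cells in all 3 embryos. Besides T, 12 of 22 streak genes were higher in all 3, for example Mixl1 by 3.43, 2.27 and 2.38 and Eomes by 2.37, 1.41 and 1.07 in mean log2(CPM + 1). Evx1, Snai1 and Frzb were higher in all 3 as well. Pou3f1, a POU factor of the anterior epiblast, was lower by 1.62, 0.91 and 0.84 (differences of -1.62, -0.91 and -0.84), and Utf1 showed -1.16, -0.71 and -0.23. Pou5f1 differed by 0.13, 0.06 and -0.52 and Otx2 by -0.19, -0.21 and -0.10.

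Cells without a plate name lay closer to each other than cells on plates. The distance between a pair of cells of an embryo was the square root of 1 minus Spearman's correlation, divided by 2 before the root was taken, over the 500 most variable genes of a group. The medians were 0.464 in E6.5 embryo 2, 0.429 in E6.75 embryo 1 and 0.413 in E6.75 embryo 2 (0.435 ± 0.0259, SD, n = 3 embryos with at least 4 cells), from 0.498 to 0.558 in 7 plate embryos (0.534 ± 0.0203) and from 0.415 to 0.455 in 8 E5.5 embryos. The 3 embryos lay below all plate embryos, with a difference of -0.10 (p = 0.0167, adjusted p = 0.0238, exact two-sided permutation test, n = 3 and 7, where 0.0167 is the smallest value such groups allow). From E5.5 the difference was -0.003 (p = 0.8, the same test). Measured over the same 500 genes for both groups the difference from the plates was -0.02 (p = 0.167, the same test), and without any 1 of the 3 embryos p was 0.0556, the smallest value that 2 against 7 allow. The number of genes detected differed between the same groups, as given above, and its part in the distance was not tested.

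**Figure D5:**
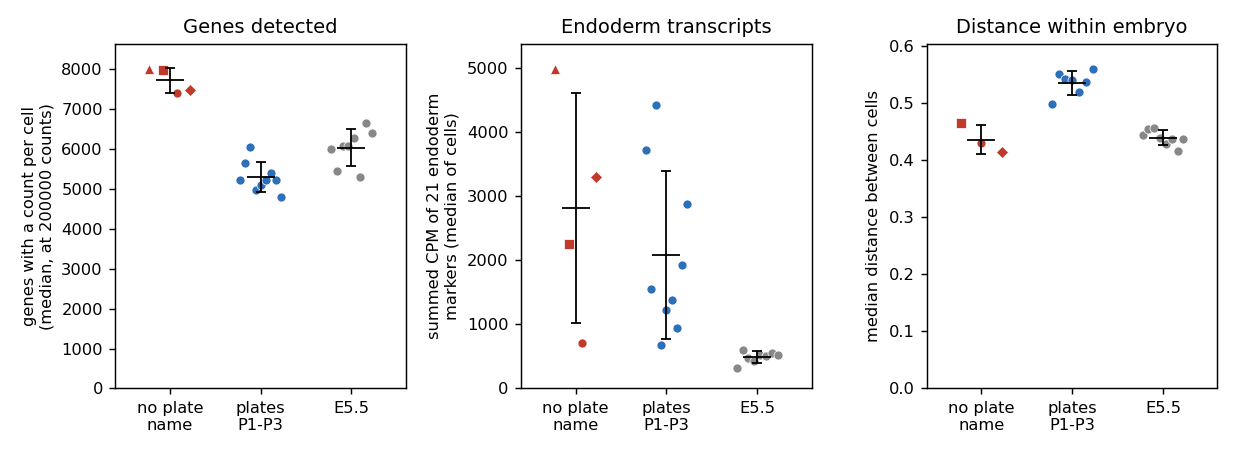
Values per embryo with the mean and SD in black for embryos without a plate name (red), plates P1 to P3 (blue) and E5.5 (grey). The panels show the median number of genes with a count after thinning each cell to 200000 counts, the median summed CPM of 21 endoderm markers per cell, and the median distance between cells of an embryo. Red points stand above all others for genes detected, overlap the blue ones for endoderm transcripts and lie below the blue ones for distance.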

How the data were processed

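The deposited values are raw counts for each gene in each cell and were not rescaled by the authors. Per the study's methods and processing notes, the authors trimmed reads with Trim Galore, aligned them to GRCm38 with HISAT2, dropped secondary alignments and those of mapping quality below 20, and obtained gene counts in SeqMonk. They had removed cells with few genes or many mitochondrial reads, wells of more than a pair of cells and trophoblast cells, and no doublet caller was run here. The 24483 gene rows lie on chromosomes 1 to 19, and other chromosomes are not analysed here. Stage, embryo, plate and wells with a pair of cells came from the titles. The embryo was the replicate. Counts were summed over at least 3 selected cells per embryo and tested with edgeR 4.0.16 (R 4.3.3, quasi-likelihood test after TMM scaling and filterByExpr, p-values adjusted by Benjamini-Hochberg), all 3 groups sharing 1 estimate of the spread. A gene was called when its adjusted p did not exceed 0.05 and its log2 fold change was beyond 1 in either direction. Nothing says that embryos shared no litter, so p-values measure the spread between these embryos. Single values per embryo were compared by exact permutation tests. Levels are CPM and fold changes log2. The scripts were tested on simulated data. Alternatives were DESeq2, limma, other scaling, filters, thinning, single wells, embryos left out, a replicate block, and, chosen after seeing the data, a score gap and a GC offset.

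The named genes are the 4 markers, the 12 largest rises and 12 largest drops among called genes whose embryos do not overlap and whose higher group has a mean of at least 10 CPM, 2 to 4 genes of each list, and the genes with the largest excess or loading. Genes of a list beyond this rule were named after their values were seen. Some genes that the rule or a list holds are not reported here. Members and lists were chosen with earlier results of these data known. Same-numbered embryos did not deviate together (correlations from -0.03 to 0.008 in 10 pairs), so that the numbers pair nothing. Python 3.11.15 with scipy 1.17.1 and scikit-learn 1.9.0, limma 3.58.1 and DESeq2 1.42.0 served for the rest. GC content came from the GENCODE transcripts of GRCm38.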

Additional observations from a re-analysis of the deposited data

Results flagged for a closer look

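Among 41 sets of 4 to 9 embryos tested for a value far from the others, 5 had one, where chance flags about 1 in 20. Gtdc2 stood at 37.5 CPM in E6.5 embryo 2 against 7.78 to 12.8 in the other embryos without a plate name. Zdhhc8 stood at 46.0 CPM in the same embryo against 4.64 to 11.1. Cbx3 was low there, at 42.9 CPM against 85.0 to 86.7. Cic stood at 47.3 CPM in E6.5 embryo 1 against 1.94 to 7.54. The median GC content of the counts was 50.4% in 1 E5.5 embryo (embryo 4) against 49.6 to 49.96% in the other 7. Outside the comparisons, Aldh1a3 was at 10 CPM or more in 25 of the 105 cells of E4.5 (23.8%, highest 117 CPM), a stage that no comparison here uses.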

How the results depend on the processing

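The 353 genes called against the plates became 561 with DESeq2, 68 with E6.75 cells only, 203 with GC content as an offset, 4229 with limma on mean log2(CPM + 1) (4090 of them higher, with the median of all genes at 0.67 instead of 0.07), 218 with cells without any T count, 47 with the embryo number as a replicate block and 69 in a test against the log2 limit. They numbered 193 to 274 with 1 embryo left out. The 297 genes called against E5.5 became 594 with DESeq2, 112 with E6.75 cells only, 2525 with limma (median 0.41), 171 without any T count, 183 with a score gap of at least 3, 56 with the replicate block and 85 against the log2 limit, and 137 to 239 with 1 embryo left out. The split of 200 higher and 153 lower genes changed to 258 and 303 with DESeq2, 127 and 147 without a filter, 9 and 38 with the block and 85 and 108 without E6.5 embryo 2, and that of 153 and 144 against E5.5 to 174 and 95 without a filter. Between E6.75 and E6.5 embryos DESeq2 called 22 genes, limma 126, sums of at least 5 cells 1 and thinned counts 1, and leaving out 1 embryo gave 0 to 1. The distance from the plates was -0.0204 with shared genes and -0.108 (p = 0.0952) with at least 8 cells, and ran from -0.0979 to -0.0736 with 1 embryo left out. Of the named genes that were called, 7 of 44 (Dennd5b, Rpgrip1, Cbx3, Arglu1, Slc24a5, Pdpn and Klhl9) and 8 of 38 kept their call under all 17 alternatives, and none changed sign. The replicate block cost 35 and 22 of these calls, although the numbers do not pair the embryos, and the cause of the losses under the other settings was not tested. Groups of 4 embryos, 1 of them with 3 cells, limit what could be called.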
